A study of Mus musculus with 7 samples.

Results

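The AP-1 and EGR immediate early factors are transcription factors whose genes can be switched on within minutes of a stimulus, before any new protein is made. In left atria overexpressing FOG2, Fos, Fosb and Jun rose relative to wild type atria, by 3.48-fold, 12.5-fold and 2.01-fold. Their edgeR adjusted p values were 0.0492, 0.00980 and 0.0198, and the call of Fos held in 8 of 18 alternative settings. Leaving out overexpression replicate 1, the highest library for each, lowered their log2 fold changes from 1.80, 3.57 and 1.01 to 1.41, 3.05 and 0.90. Atf3 and Egr1 were 10.1-fold and 2.23-fold higher on average but did not pass the threshold of the edgeR test on all 7 libraries (adjusted p = 0.0604 and 0.0552), whereas DESeq2 called both (0.000533 and 0.00261). With limma-voom, only Fosb and Jun were called. The 10 genes were taken from the count table by symbol (Fos, Fosb, Fosl1, Fosl2, Jun, Junb, Jund, Atf3, Egr1 and Egr2) and make up 10 of its 24421 gene rows, and 9 of them were among the 13295 genes with enough reads to test. Fosl1 was left out, with 2 reads in all.

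Left atrial RNA of adult mice of the outbred CD1 strain was sequenced in 4 libraries with the genotype FOG2 Overexpression and 3 with the genotype Wildtype. Zfpm2 encodes FOG2, a zinc finger protein that works with GATA factors, and the series title sets it in an atrial gene network of TBX5 and GATA4 that links heart failure with atrial fibrillation risk. The protocol calls the animals DTG and NTG and says that both were kept off doxycycline for 1 week before the hearts were taken. The promoter and cell type that drive the transgene, the sex of the animals, whether each library is a separate animal, and the time between removal of the heart and homogenisation are not in the labels.

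AP-1 is a dimer of a Fos family protein with a Jun family protein, or of 2 Jun proteins, that binds the TGANTCA element through a basic leucine zipper. ATF3 is a related stress-induced bZIP protein that often acts as a repressor, and EGR1 and EGR2 are zinc finger proteins that bind GC-rich sites. MAP kinases switch these genes on through SRF, its ELK partners and factors bound to cyclic AMP response elements. In the heart Fos, Jun and Egr1 are known as early transcripts after stretch, pressure load and adrenergic stimulation, and in many tissues they also respond to handling of the tissue.

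The windows around the transcription start sites are shown for the 3 members that rose and for Atf3 and Egr2, the other members with the largest average differences that have an entry in the table used. The sequences are from RefSeq on GRCm38.p6, from 250 bases before to 50 bases after the start, and capitals mark the motifs searched. They lie at chr12:85473640-85473939 on the plus strand for Fos, chr7:19309996-19310295 on the minus strand for Fosb, chr4:95052173-95052472 on the minus strand for Jun, chr1:191183284-191183583 on the minus strand for Atf3 and chr10:67537619-67537918 on the plus strand for 1 of 5 listed Egr2 starts.
Fos: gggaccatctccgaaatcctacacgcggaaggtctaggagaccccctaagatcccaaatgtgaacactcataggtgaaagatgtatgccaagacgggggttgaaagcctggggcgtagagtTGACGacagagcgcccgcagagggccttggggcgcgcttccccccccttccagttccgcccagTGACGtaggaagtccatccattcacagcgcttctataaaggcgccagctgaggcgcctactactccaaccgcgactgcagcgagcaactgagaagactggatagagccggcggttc
Fosb: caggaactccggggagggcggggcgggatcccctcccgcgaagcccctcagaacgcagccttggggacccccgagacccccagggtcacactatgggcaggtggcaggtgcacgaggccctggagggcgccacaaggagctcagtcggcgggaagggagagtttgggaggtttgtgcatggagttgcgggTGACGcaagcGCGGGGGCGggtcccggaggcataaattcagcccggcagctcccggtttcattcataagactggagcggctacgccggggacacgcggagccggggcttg
Jun: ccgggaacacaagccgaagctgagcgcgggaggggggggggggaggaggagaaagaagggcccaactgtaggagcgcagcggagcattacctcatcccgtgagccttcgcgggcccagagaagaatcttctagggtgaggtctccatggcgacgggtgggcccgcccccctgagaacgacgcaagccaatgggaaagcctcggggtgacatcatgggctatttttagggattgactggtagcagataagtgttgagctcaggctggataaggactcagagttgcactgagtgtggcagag
Atf3: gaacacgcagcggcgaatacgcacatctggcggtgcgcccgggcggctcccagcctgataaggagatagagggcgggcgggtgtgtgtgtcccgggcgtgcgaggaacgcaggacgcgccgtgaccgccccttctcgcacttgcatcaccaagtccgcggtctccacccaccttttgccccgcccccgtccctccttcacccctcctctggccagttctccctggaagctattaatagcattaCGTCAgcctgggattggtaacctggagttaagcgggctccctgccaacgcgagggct
Egr2: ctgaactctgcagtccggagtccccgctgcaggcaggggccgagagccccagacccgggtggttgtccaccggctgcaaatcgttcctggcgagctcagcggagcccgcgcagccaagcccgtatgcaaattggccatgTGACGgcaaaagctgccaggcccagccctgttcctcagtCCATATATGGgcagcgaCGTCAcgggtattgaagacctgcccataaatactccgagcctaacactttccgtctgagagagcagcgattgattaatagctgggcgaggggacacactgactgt

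Of the 10 members, 8 had such a window, and each was searched on both strands. The core TGACG of the cyclic AMP response element was in the windows of 5 of the 8 genes (Fos, Fosb, Junb, Atf3 and Egr2), and 20.8% of the 32851 promoter windows of that length held it. The count is by gene and the share by single window, so Egr2, with 5 windows, had more places for a match. In Fos the cores lay at -129 to -125 and -66 to -62 from the start, in Fosb at -60 to -56, and in Atf3 at -7 to -3 on the opposite strand. The windows of Atf3 and Fosl2 and the Egr2 window shown lie inside the annotated genes, at RefSeq starts downstream of each gene's outermost end. The EGR motif GCGNGGGCG was in the windows of Fosb, at -50 to -42, and Fosl2, at -79 to -71, against 5.55% of all windows. The CArG box, the SRF element, was in 4 of the 5 Egr2 windows, against 1.63% of all windows. In the one shown it lay at -72 to -63, and the Egr2 windows that overlap that one hold the same box. The full elements TGACGTCA and TGANTCA, in 1.79% and 7.81% of all windows, had no match in any member's window, and the Jun and Jund windows had none of the motifs searched. Variants of these patterns, such as TGACATCA in the Jun window, and elements outside the windows were not searched. The Jund window, chr8:70697489-70697788, ends before the start of the annotated gene at 70698949, so it does not cover that start. The core TGACG, which every TGACGTCA also holds, was added to the search after the windows had been seen.

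Zfpm2 itself, the check of the labels, had 139.9, 222, 261 and 246 CPM (counts scaled to a common gene total per library, with TMM factors) in overexpression replicates 1 to 4, against 31.7, 30.9 and 29.4 CPM in wild type replicates 1 to 3. The log2 fold change was 2.82 ± 0.22 (SE; adjusted p = 2.05e-04 by edgeR's quasi-likelihood test with Benjamini-Hochberg adjustment), with overexpression replicate 1 the lowest of its group. Gene totals were 5562520 to 8655655 counts in the overexpression libraries and 7673309 to 8579443 in wild type. Overexpression replicate 1 correlated with the other overexpression libraries at r = 0.947 to 0.949 across genes, while those 3 correlated with each other at 0.978 to 0.983 and the wild type libraries at 0.977 to 0.983. It also held 4908 reads of 4 Y-linked genes, as wild type replicate 2 held 3943, against at most 4 reads in each of the other 5 libraries, so each group mixed 1 library with Y-linked transcripts and others without. Because replicate 1 stood apart, results are given with and without it.

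The plot of CPM by library shows the 10 members, with overexpression replicate 1 as the highest point of its group in each of the 9 tested genes.

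**Figure D1:**
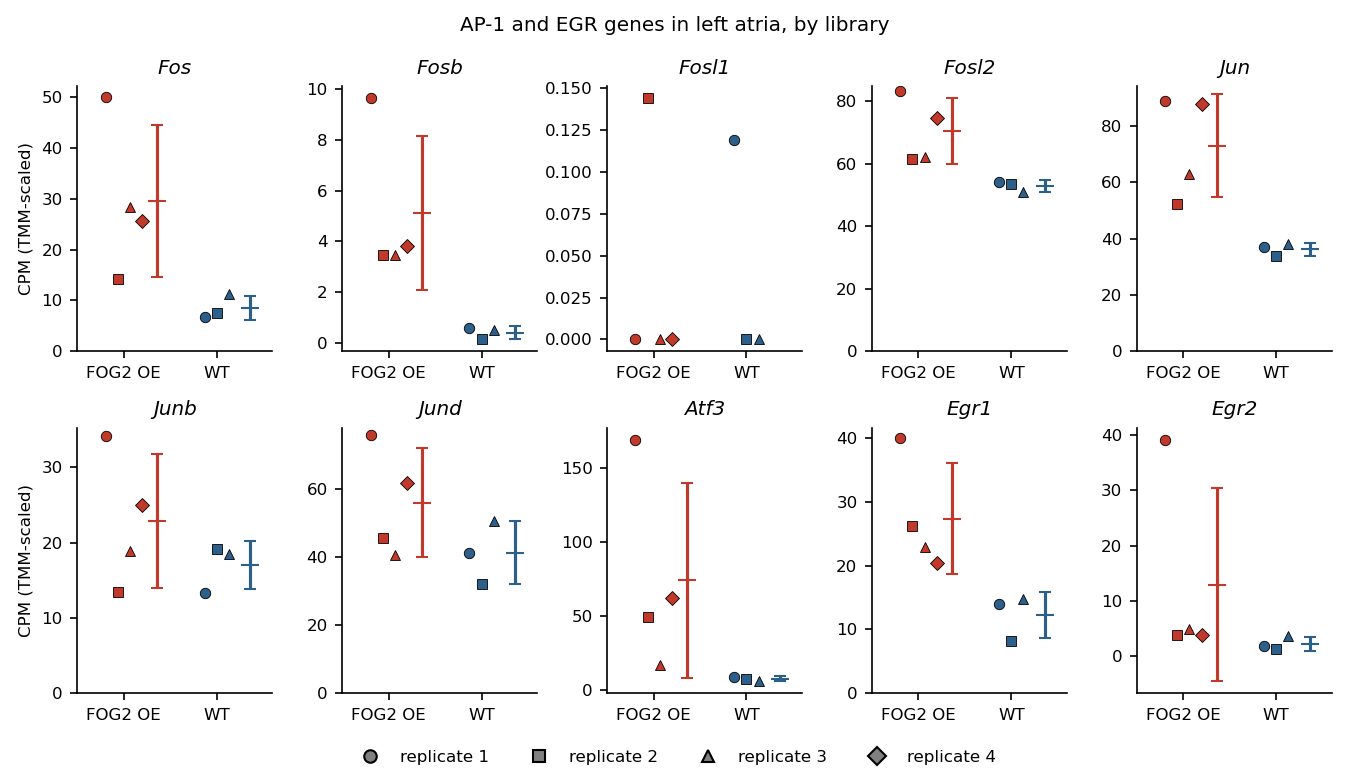
CPM on TMM-scaled totals (y axis) of the 10 genes in 4 FOG2 overexpression libraries (FOG2 OE, red) and 3 wild type libraries (WT, blue), 1 point per library and a bar for the mean ± SD, which is left out for Fosl1. Replicate 1 is the highest overexpression library in all 9 tested genes, and in Egr2 it stands at 39.0 CPM against 3.83 to 4.86 CPM in the other overexpression libraries.

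Among the Fos family, Fos, the founding member and a partner of Jun proteins, rose. Its level was 49.9, 14.3, 28.3 and 25.6 CPM in overexpression replicates 1 to 4, against 6.79, 7.47 and 11.2 CPM in wild type replicates 1 to 3. The groups did not overlap, with replicate 2 nearest to wild type. The means were 29.5 ± 14.9 CPM (SD, n = 4) in overexpression and 8.48 ± 2.37 CPM (SD, n = 3) in wild type, giving a log2 difference of 1.80 ± 0.41 (SE) with an adjusted p of 0.0492 by the edgeR test. Without overexpression replicate 1 the difference was 1.41 ± 0.28 with an adjusted p of 0.0174. The call was lost without overexpression replicate 3 or 4 (adjusted p = 0.0829 and 0.059) and without wild type replicate 1, 2 or 3 (0.187, 0.209 and 0.0953). Fos lies on chromosome 12 from 85473890 to 85477273 in mm10, on the plus strand.

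Fosb, a close relative of Fos, rose by the most of the 9 genes. It had 9.65, 3.46, 3.47 and 3.83 CPM in overexpression replicates 1 to 4, against 0.595, 0.141 and 0.492 CPM in wild type. Every overexpression library was several times above every wild type library, although the wild type values rest on 5, 1 and 4 reads. The log2 fold change was 3.57 ± 0.59 (SE; edgeR adjusted p = 0.00980), and 3.05 ± 0.42 without replicate 1 (adjusted p = 0.00133). Fosb was called under each of the 18 alternatives run, with adjusted p values up to 0.0480. Its wild type counts were all below the filter's minimum of 10 reads, so it entered the test only through the overexpression libraries. With no filter its edgeR adjusted p was 0.00255. The gene lies on chromosome 7 from 19302696 to 19310051, on the minus strand.

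The Fos-related antigens Fosl1 and Fosl2 lack the strong activation domains of Fos. Fosl2 had 83.2, 61.6, 62.0 and 74.6 CPM in overexpression libraries, against 54.2, 53.6 and 50.8 CPM in wild type. The groups did not overlap, but the log2 fold change of 0.41 ± 0.12 had an edgeR adjusted p of 0.101, and of 0.0829 without replicate 1. Fosl1 had 1 read in overexpression replicate 2, at 0.144 CPM, and 1 in wild type replicate 1, at 0.119 CPM, and none elsewhere. A count of 3 would have been 0.333 to 0.521 CPM in the overexpression libraries and 0.357 to 0.423 CPM in wild type, so a difference below that was not detectable at this depth, by counting error alone. Fosl2 lies on chromosome 5 from 32135801 to 32157842 on the plus strand. Fosl1, on chromosome 19 from 5447547 to 5455946 on the plus strand, overlaps Ccdc85b, and without a stated strand setting their reads cannot be told apart.

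In the Jun family, Jun, the main partner of Fos, rose. It had 89.0, 52.2, 63.1 and 87.7 CPM in overexpression replicates 1 to 4, against 37.2, 33.7 and 38.0 CPM in wild type. The lowest overexpression library, replicate 2, was above the highest wild type library, and replicates 1 and 4 were nearly level. The log2 fold change was 1.01 ± 0.19 (SE; edgeR adjusted p = 0.0198), and 0.90 ± 0.17 without replicate 1 (adjusted p = 0.0132). The call was lost without wild type replicate 1, 2 or 3, with adjusted p values of 0.0848, 0.108 and 0.065 and log2 fold changes between 0.96 and 1.04. Jun is a gene of 1 exon on chromosome 4, from 95049034 to 95052222 on the minus strand, and overlaps the antisense gene Junos, so the same limit on strand applies.

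Junb and Jund, the Jun proteins often described as weaker activators and as brakes on growth, did not pass the test. Junb had 34.2, 13.4, 18.9 and 25.0 CPM in overexpression libraries, against 13.3, 19.2 and 18.4 CPM in wild type, with overlapping groups. Its log2 fold change was 0.44 ± 0.30 (edgeR adjusted p = 0.459) and 0.18 ± 0.23 without replicate 1 (0.715). Jund had 75.6, 45.4, 40.7 and 61.8 CPM in overexpression libraries, against 41.2, 32.2 and 50.5 CPM in wild type, again with overlap, and a log2 fold change of 0.44 ± 0.24 (adjusted p = 0.358). Both lie on chromosome 8, Junb from 84974484 to 84978718 on the minus strand and Jund from 70698949 to 70700616 on the plus strand, where the antisense gene Gm11175 overlaps it. Junb overlaps Prdx2 on the other strand, an abundant gene with a log2 fold change of -0.20 ± 0.10 (adjusted p = 0.331).

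Atf3, the stress-induced repressor, varied widely between overexpression libraries. Its level was 169, 49.0, 16.5 and 61.9 CPM in overexpression replicates 1 to 4, against 8.93, 7.47 and 5.66 CPM in wild type replicates 1 to 3. The overexpression libraries all lay above wild type but differed among themselves by far more than the wild type libraries did. The means were 74.0 ± 65.9 CPM (SD, n = 4) in overexpression and 7.35 ± 1.64 CPM (SD, n = 3) in wild type, a log2 fold change of 3.34 ± 0.79 (SE; edgeR adjusted p = 0.0604). Without replicate 1 it was 2.54 ± 0.53 and passed (adjusted p = 0.0449), with a mean of 42.5 ± 23.4 CPM over the other 3 overexpression libraries. It also passed without overexpression replicate 3 (adjusted p = 0.0126). Atf3 lies on chromosome 1 from 191170296 to 191218039, on the minus strand.

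Of the EGR factors, Egr1 had 39.9, 26.2, 22.9 and 20.3 CPM in overexpression replicates 1 to 4, against 13.9, 8.18 and 14.8 CPM in wild type. The groups did not overlap. The log2 fold change was 1.15 ± 0.28 (SE; edgeR adjusted p = 0.0552), and 0.90 ± 0.21 without replicate 1, where it passed (adjusted p = 0.0238). Egr1 lies on chromosome 18 from 34859823 to 34864984, on the plus strand.

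Egr2 rested on 1 library. It had 39.0, 3.89, 4.86 and 3.83 CPM in overexpression replicates 1 to 4, against 1.79, 1.27 and 3.69 CPM in wild type. Outside replicate 1, the lowest overexpression library was close to the highest wild type library. The log2 fold change was 2.53 ± 1.03 (SE; edgeR adjusted p = 0.235) with replicate 1 and 0.87 ± 0.37 without it (adjusted p = 0.199). The mean of the overexpression libraries was 12.9 ± 17.4 CPM (SD, n = 4) with replicate 1 and 4.20 ± 0.578 CPM (SD, n = 3) without it. Egr2 lies on chromosome 10 from 67535475 to 67542188, on the plus strand.

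Counted together, 3 of the 9 tested members were higher at an adjusted p under 0.05 and 0 were lower, while 1.55% of the 13295 tested genes were called higher and 3.29% lower. Members and lists were chosen with earlier results of these data known, so the shares over all genes are not an independent yardstick. Fosb, among those called, entered the test only through its overexpression counts. At an unadjusted p under 0.05, 7 of 9 were higher and 0 were lower, against 9.14% of all tested genes that were higher and 10% that were lower at that level. In 7 of 9, every overexpression library was above every wild type library, as in 8.99% of all tested genes; the exceptions were Junb and Jund, and Egr2 met this narrowly. Without overexpression replicate 1, 5 of 9 members were called higher (Atf3 and Egr1 in addition), against 3.74% of the 13191 genes then tested. The median log2 fold change was 1.15 over the 9 members and 0.02 over all tested genes, and 0.90 and 0.01 without replicate 1. In the 5 libraries without Y-linked transcripts, Fosb and Egr1 passed (log2 fold changes of 2.69 and 0.69, edgeR adjusted p = 0.00398 and 0.0336), against 2.19% of all genes tested there, while Fos was at 1.34 (0.0836) and Jun at 0.85 (0.0638). The 2 libraries with Y-linked transcripts, 1 a group, allow no test of their own.

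The plot of log2 fold changes sets the fit on all libraries beside the one without replicate 1, which gave a smaller difference for each of the 9 genes.

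**Figure D2:**
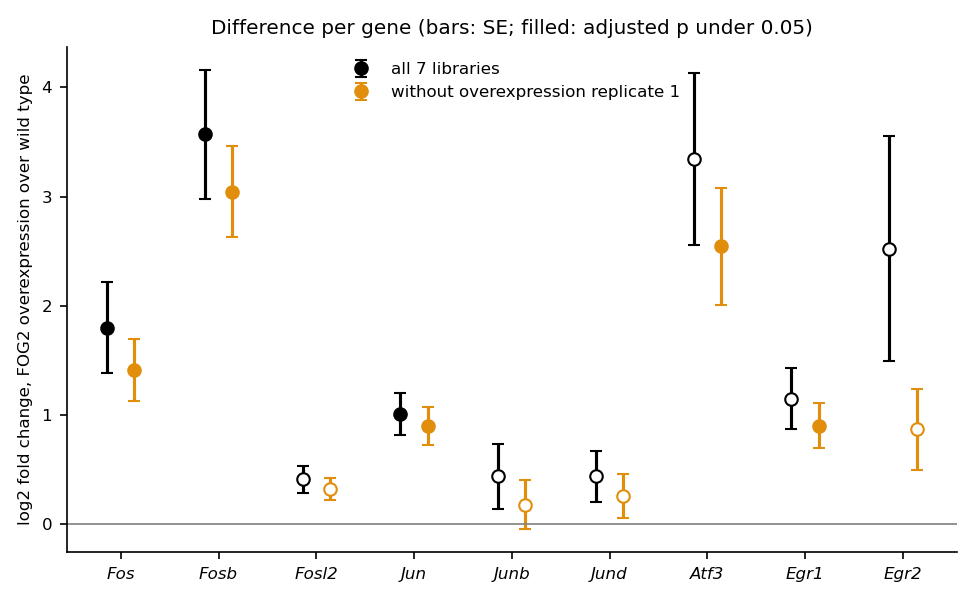
Log2 fold change of FOG2 overexpression over wild type (y axis) for the 9 tested genes, with all 7 libraries (black) and without overexpression replicate 1 (orange). Bars are ± SE and filled points have an edgeR adjusted p under 0.05; Atf3 and Egr1 are filled only without replicate 1, and Egr2 drops to 0.87 there.

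The members also varied by library within the overexpression group. Replicate 1 was the highest of the 4 for all 9 tested genes, and the lowest was replicate 2 for 5 of them, replicate 3 for 2 and replicate 4 for 2. The median log2 ratio of the 9 genes to their wild type mean was 1.70 in replicate 1, 0.75 in replicate 2, 0.90 in replicate 3 and 0.77 in replicate 4. In replicates 1 and 4 all 9 genes were above their highest wild type library, against 37.8% and 28.9% of all tested genes. In replicates 2 and 3, 7 of 9 were, against 32.4% and 32.1%.

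Per kilobase of annotated exon, Jund was the most abundant member in wild type atria, and in overexpression atria Atf3 and Jund were close on average, with Atf3 raised by replicate 1. On this scale overexpression libraries averaged 34.4 ± 30.6 CPM per kb for Atf3, 33.5 ± 9.59 for Jund, 22.9 ± 5.73 for Jun and 12.5 ± 6.33 for Fos (SD, n = 4). Junb, Fosl2, Egr1 and Egr2 followed at 9.94, 7.27, 6.10 and 3.80 CPM per kb, and Fosb at 0.818. Without replicate 1, Jund led at 29.6 ± 6.66 CPM per kb, before Jun at 21.2 ± 5.71 and Atf3 at 19.7 ± 10.9 (SD, n = 3), and Egr2 was at 1.24 ± 0.170. With all 4 libraries, neighbours in the order overlapped between libraries in each pair down to Egr2 and Fosb. In wild type atria the order was Jund at 24.8 ± 5.51, Jun at 11.4 ± 0.714, Junb at 7.38 ± 1.38, Fosl2 at 5.46 ± 0.187, Fos at 3.61 ± 1.01, Atf3 at 3.41 ± 0.761, Egr1 at 2.74 ± 0.799, Egr2 at 0.662 ± 0.375 and Fosb at 0.0656 ± 0.0381 CPM per kb (SD, n = 3). There, Fos overlapped with Atf3 and Atf3 with Egr1, and the other neighbouring pairs down to Egr2 and Fosb did not overlap. Fosb, with the largest log2 fold change, was thus the least abundant tested member in both groups. The plot of level per length shows both orders.

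**Figure D3:**
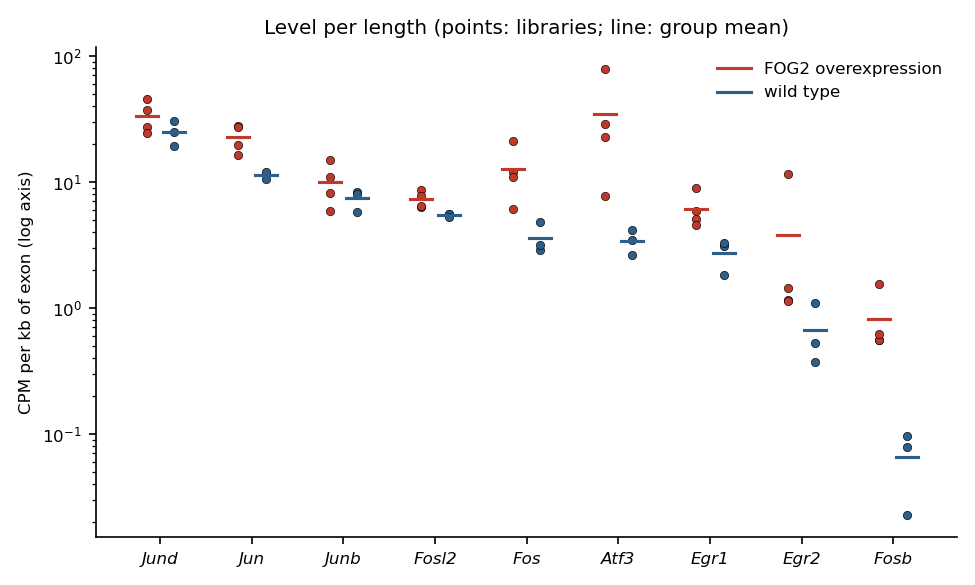
CPM per kb of annotated exon (y axis, log scale) for the 9 tested genes, ordered by their wild type mean, with 1 point per library and a line at the group mean (FOG2 overexpression red, wild type blue). Jund leads in wild type at 24.8 CPM per kb, and Atf3 averages 34.4 CPM per kb in overexpression, or 19.7 without replicate 1, its highest point.

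None of the 17 other AP-1 and related bZIP genes tested passed. In either direction 0 were called by edgeR, DESeq2 or limma-voom on all libraries, with a median log2 fold change of 0.17. At an unadjusted edgeR p under 0.05, 0 were higher and 0 lower, against 9.14% and 10% of all tested genes. The 4 with the smallest p were Jdp2, a repressor that dimerises with Jun, at 0.35 ± 0.18, Creb1, a cyclic AMP response factor, at 0.17 ± 0.09, Atf5 at 0.23 ± 0.13 and Atf4, the effector of the integrated stress response, at 0.28 ± 0.15 (adjusted p between 0.340 and 0.364). Among the other EGR genes and the NAB corepressors, which restrain EGR proteins, 0 of 3 were called by edgeR, DESeq2 or limma-voom. At an unadjusted edgeR p under 0.05, 2 of the 3 were higher, against 9.14% of all tested genes. Nab2 had 29.7, 23.5, 34.2 and 29.2 CPM in overexpression libraries, against 23.3, 19.6 and 22.0 CPM in wild type (log2 fold change 0.43 ± 0.14, adjusted p = 0.141). Nab1 was at 0.29 ± 0.10 (adjusted p = 0.157). Egr3, a close relative of Egr1, was high in the same library as Egr2, at 16.9 CPM in overexpression replicate 1 and 2.02 to 3.37 CPM in the other 3, against 0.846 to 3.57 CPM in wild type (adjusted p = 0.341).

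Of 44 other immediate early genes tested, 0 were called by edgeR. At an unadjusted p under 0.05, 13 were higher and 1 lower, against 9.14% and 10% of all tested genes. The median log2 fold change was 0.39. Cyr61, a secreted matrix protein, came nearest. It had 352, 94.6, 64.8 and 116 CPM in overexpression replicates 1 to 4, against 22.6, 16.8 and 29.8 CPM in wild type, with no overlap between groups. Its log2 fold change was 2.77 ± 0.64 (SE; edgeR adjusted p = 0.0566), and 1.99 ± 0.27 without replicate 1 (adjusted p = 0.00533). Plk2, a polo-like kinase, was at 1.13 ± 0.30 (adjusted p = 0.0798), Nr4a3, an orphan nuclear receptor, at 2.01 ± 0.55 (0.0824), and Rhob, a small GTPase, at 0.67 ± 0.19 (0.0885). Without replicate 1, 5 of 43 were called higher and 1 lower, against 3.74% and 4.99% of all genes then tested. These were Ier5, Dusp1, Btg2, Cyr61 and Plk2, and the lower one Bhlhe40, and this list was drawn up after their values were seen. With all libraries, DESeq2 called 9 of the 44 higher, against 3.46% of all tested genes, and limma-voom called 1, Cyr61.

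Among genes that restrain MAP kinase signalling, some rose. Of 16 MAP kinase phosphatases and Sprouty and Spred inhibitors tested, 3 rose (Dusp6, Dusp4 and Spred1) and 0 fell in the edgeR test, against 1.55% of all tested genes called higher, with a median log2 fold change of 0.37. DESeq2 called 5 higher (Dusp14 and Spry4 in addition), and edgeR called 1, Dusp6, when any 1 wild type library was left out. Dusp6, the cytoplasmic ERK phosphatase, had 80.9, 67.9, 71.1 and 97.7 CPM in overexpression replicates 1 to 4, against 40.0, 40.6 and 45.3 CPM in wild type. Its libraries did not overlap, replicate 1 was not the highest, and the log2 fold change was 0.92 ± 0.14 (SE; edgeR adjusted p = 0.00607). Dusp4, a nuclear phosphatase of ERK and JNK, had 10.6, 18.6, 13.2 and 21.8 CPM in overexpression libraries, against 4.41, 6.35 and 5.66 CPM in wild type. Here replicate 1 was the lowest overexpression library, and the log2 fold change was 1.56 ± 0.28 (adjusted p = 0.0132). The call was lost without wild type replicate 1, 2 or 3 (adjusted p = 0.0759, 0.0506 and 0.0552). Spred1, an inhibitor of Ras signalling, had 127, 129, 148 and 139 CPM in overexpression libraries, against 99.2, 96.7 and 111 CPM in wild type (0.41 ± 0.10, adjusted p = 0.0465). It was not called without any 1 of overexpression replicates 2 to 4 or the wild type libraries, with adjusted p values of 0.0723 to 0.218. Dusp14 was at 1.48 ± 0.38 (adjusted p = 0.0624).

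None of the kinases passed the test. Of 23 kinases of the ERK, JNK and related MAP kinase pathways tested, 0 were called by edgeR or limma-voom. DESeq2 called 1, Rps6ka5, lower, as it did 681 of the 13295 tested genes. At an unadjusted edgeR p under 0.05, 1 kinase was higher and 2 lower, against 9.14% and 10% of all tested genes. The median log2 fold change was -0.03. Rps6ka5, a nuclear kinase that acts on chromatin at immediate early genes, had 29.2, 42.4, 48.3 and 46.2 CPM in overexpression libraries, against 67.4, 59.8 and 61.1 CPM in wild type (-0.60 ± 0.16, adjusted p = 0.0721). Without replicate 1 it was at -0.46 ± 0.10 and passed as lower (adjusted p = 0.0146). Mapk10, Rps6ka2 and Mapkapk2 were at -0.45 ± 0.18, 0.22 ± 0.10 and -0.24 ± 0.12 (adjusted p between 0.215 and 0.321). Of 7 genes for SRF and its cofactors, 0 were called by edgeR or limma-voom, and DESeq2 called Mkl2 lower. At an unadjusted edgeR p under 0.05, 1 of the 7 was higher and 1 lower, against 9.14% and 10% of all tested genes. Srf was at 0.35 ± 0.13 (adjusted p = 0.186), its coactivator genes Mkl2 and Myocd at -0.69 ± 0.21 (0.113) and 0.29 ± 0.17 (0.394), and its partner Elk4 at -0.10 ± 0.10 (0.613), a direction that turned with scaling by library totals only.

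Of 28 genes described as AP-1 or EGR1 targets, edgeR called 0 higher and 1 lower with all libraries, against 1.55% and 3.29% of all tested genes. Without replicate 1, 0 were called higher and 3 lower, against 3.74% and 4.99% of the genes then tested. The gene that fell in both was F3, tissue factor, the starter of the clotting cascade and a described EGR1 target. It had 12.4, 12.7, 13.9 and 8.71 CPM in overexpression libraries, against 25.5, 41.0 and 27.9 CPM in wild type (-1.40 ± 0.21, edgeR adjusted p = 0.00562). The other 2 called without replicate 1, named after their values were seen, were Nppb, the natriuretic peptide BNP, and Fn1, fibronectin. Nppb had 168, 19.6, 6.95 and 15.8 CPM in overexpression replicates 1 to 4, against 396, 403 and 382 CPM in wild type, with replicate 1 far above the other 3. Its log2 fold change was -2.88 ± 0.97 (SE; edgeR adjusted p = 0.163) with replicate 1 and -4.77 ± 0.29 without it (8.23e-05). Fn1 was at -0.24 ± 0.21 (adjusted p = 0.582) with replicate 1 and -0.48 ± 0.12 without it (0.0287). At an unadjusted edgeR p under 0.05 with all libraries, 8 of the 28 were higher and 5 lower, against 9.14% and 10% of all tested genes. DESeq2 called 3 of the 28 higher and 2 lower, against 460 and 681 of the 13295 tested genes. With limma-voom 0 were higher and 2 lower, against 184 and 435 of the 13295. Mmp9, a matrix protease, was at -1.28 ± 0.39 (adjusted p = 0.110), and the collagen genes Col1a1 and Col1a2, which are also fibroblast markers, at 0.88 ± 0.28 (0.133) and 0.73 ± 0.25 (0.145). Of 10 heat shock genes, 0 were called by edgeR, DESeq2 or limma-voom, and the median log2 fold change was 0.12. At an unadjusted edgeR p under 0.05, 1 of the 10 was higher, against 9.14% of all tested genes. Hsp90aa1 was at 0.46 ± 0.20, Hspa1a at 0.99 ± 0.44, Hspa1b at 0.66 ± 0.32 and Dnajb1 at 0.20 ± 0.15, with adjusted p values of 0.258 to 0.500. The plot of lists shows each gene.

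**Figure D4:**
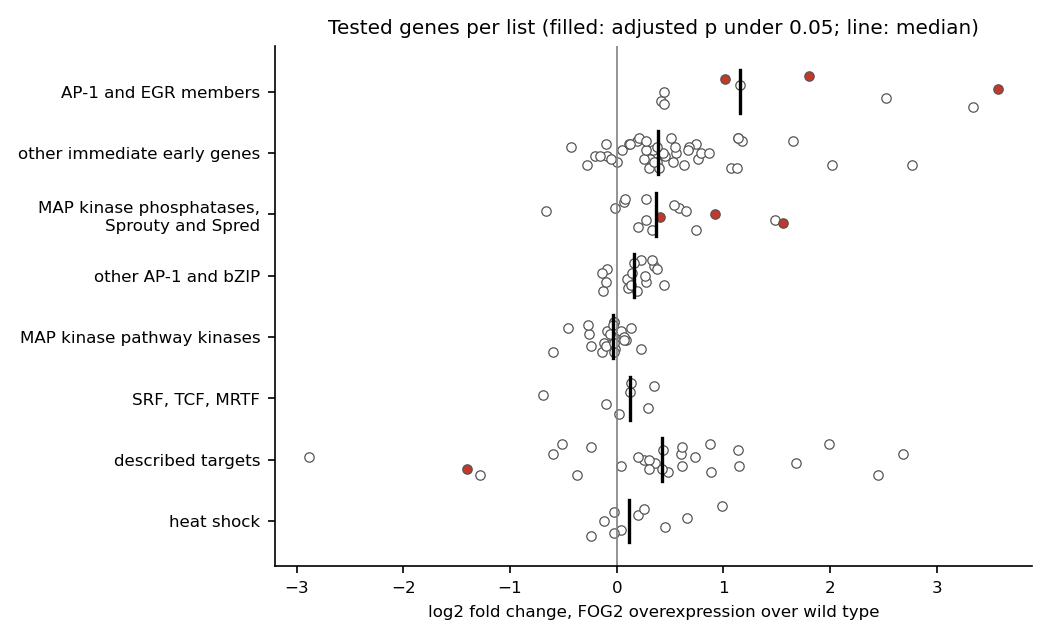
Log2 fold change of FOG2 overexpression over wild type (x axis) for each tested gene of 8 lists (rows), with a vertical line at the list's median and filled points for an edgeR adjusted p under 0.05. The medians are 1.15 for the AP-1 and EGR members, 0.39 for other immediate early genes and -0.03 for the kinases.

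By library, Cyr61 and Egr3 shared the high value in overexpression replicate 1, whereas Dusp4, Dusp6 and Rhob had their highest level in replicate 4, as the heat map of relative levels shows.

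**Figure D5:**
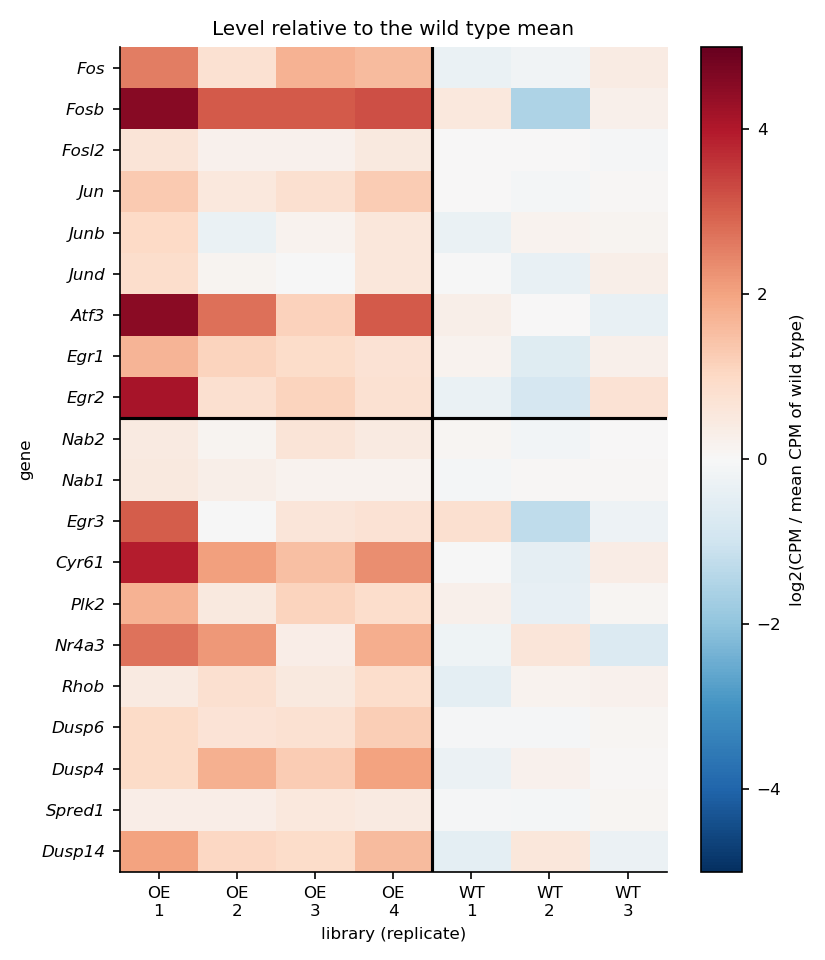
Log2 ratio of each library's CPM to the wild type mean (colour) for the 9 tested members (above the horizontal line) and the named other EGR, NAB, immediate early and feedback genes (below it), with the 4 FOG2 overexpression libraries (OE) left of the vertical line and the 3 wild type libraries (WT) right of it. Fosb, Atf3, Egr2 and Cyr61 are darkest in overexpression replicate 1, and Dusp4 in replicate 4.

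Among 13254 genes with a mean of at least 1 CPM, the pattern over the 7 libraries most like that of Fos belonged to Rnd1, Wscd2, Esm1 and Rgs16, whose log2 CPM relative to wild type differed from that of Fos by a root mean square of 0.286, 0.337, 0.354 and 0.383. Rnd1 had 16.4, 5.05, 5.91 and 8.37 CPM in overexpression libraries, against 2.14, 2.26 and 2.34 CPM in wild type. The genes most like Egr1 were Nupr1, A630033H20Rik, Meg3 and Col5a2, with differences of 0.155, 0.201, 0.203 and 0.228. Nupr1, a small stress-induced chromatin protein, had 36.9, 32.0, 23.5 and 23.1 CPM in overexpression libraries, against 14.3, 10.6 and 16.0 CPM in wild type. Egr1 stood at rank 53 in likeness to Fos, and Fos at rank 729 in likeness to Egr1. These genes were chosen for their pattern, so their differences are given with no test.

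Markers of the tissue were present, and their balance differed between groups. The summed level of 8 atrial cardiomyocyte markers was 50190 to 67920 CPM in overexpression libraries, against 80854 to 93286 CPM in wild type. Of the 8, edgeR called 3 lower, against 3.29% of all tested genes. The 7 fibroblast markers summed to 9223 to 15522 CPM in overexpression and 6598 to 9897 CPM in wild type, and replicate 1 held the highest sum. Among overexpression libraries, replicate 1 was the highest for Col1a1, Col1a2, Col3a1 and Tcf21 but the lowest for Pdgfra, Dcn and Lum. Col3a1 was at 9507 CPM there, against 3486 to 5628 CPM in the other overexpression libraries, and Pdgfra at 199 CPM, against 318 to 371 CPM. Of the 7, edgeR called 0 and DESeq2 called 2 higher, against 3.46% of all tested genes with DESeq2. At an unadjusted edgeR p under 0.05, 4 were higher, against 9.14% of all tested genes. The median log2 fold change was 0.47. Smooth muscle and pericyte markers summed to 418 to 550 CPM in overexpression and 319 to 384 CPM in wild type, with a median log2 fold change of 0.81 over the 6 genes. Of these 6, edgeR called 0 with all libraries, and 4 were higher at an unadjusted p under 0.05, against 9.14% of all tested genes. DESeq2 called 2 higher (Myh11 and Tagln), as edgeR did without replicate 1. The shares of all genes called higher in those 2 fits were 3.46% and 3.74%. Tagln, a contractile cell protein, had 78.9, 32.0, 17.7 and 26.6 CPM in overexpression replicates 1 to 4, against 7.74, 8.32 and 10.9 CPM in wild type. Myh11 had 15.3, 45.7, 42.0 and 38.5 CPM in overexpression replicates 1 to 4, against 8.22, 14.9 and 20.9 CPM in wild type. Replicate 1 was thus the highest overexpression library for Tagln and the lowest for Myh11. Macrophage markers summed to 444 to 596 CPM in overexpression and 369 to 492 CPM in wild type. Of the 5 erythroid markers, the 4 haemoglobin genes were at 0 in every library. Multiply aligned reads were not counted to genes, and whether that left these 4 at 0 was not tested. Alas2, a haem synthesis enzyme, had 220, 55.7, 105 and 25.8 CPM in overexpression replicates 1 to 4, against 35.8, 49.1 and 37.9 CPM in wild type (edgeR adjusted p = 0.340). Neutrophil markers summed to 4.55 to 13.0 CPM in overexpression and 3.95 to 9.05 CPM in wild type, and lymphocyte markers to 0.665 to 2.16 CPM in overexpression and 2.09 to 3.10 CPM in wild type. The 3 ventricular cardiomyocyte markers summed to 13.7 to 115 CPM in overexpression, highest in replicate 2, and 47.8 to 80.1 CPM in wild type. Myl2, named after its values were seen, had 0, 45.3, 1.39 and 1.28 CPM in overexpression replicates 1 to 4, against 0.714, 0.282 and 0.492 CPM in wild type. In bulk tissue, fewer cells of a type and less RNA per cell cannot be told apart, and the part of these shifts in the levels of the members was not tested.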

How the data were processed

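The authors deposited whole-number read counts per gene for 7 libraries; per the submitters' processing notes they used HTSeq 0.6.0, STAR and DESeq2 and the build mm10, with no role given for any tool. Per the labels, the atria were homogenised in TRIzol and the RNA was cleaned on columns. Whether RNA was selected by polyA tail, as one label says, or depleted of ribosomal RNA, as in the protocol, is uncertain. The strand setting is not given in the sources used here. Rows naming a gene held 27.8% to 33.1% of each library's reads; rows naming none (no feature 23.4% to 30.5%, multiple alignments 37.1% to 43.4%, ambiguous 0.101% to 0.254%) stayed out of library sizes and tests. Multiply aligned reads were thus not counted to genes.

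The counts were filtered by group with filterByExpr (at least 10 reads, total at least 15), scaled with TMM and tested, FOG2 overexpression over wild type, with edgeR 4.0.16 in R 4.3.3 (quasi-likelihood F test, robust, two-sided, no covariate), with Benjamini-Hochberg adjustment over all tested genes and a threshold of 0.05. The SE of a log2 fold change is its size divided by the root of F. The common biological coefficient of variation was 0.188. Since the labels do not say that libraries are separate animals, p-values reflect only how much these libraries vary, in part perhaps for technical reasons. Positions and exon lengths are from GENCODE M21 and promoters from RefSeq.

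The members and lists were chosen with earlier results of these data known. Named were all members, Zfpm2, and up to 4 genes with the smallest p of each list other than the cell markers. The 4 genes most like Fos and like Egr1 in pattern (log2 CPM with a prior count of 2) were named too. Spry4, Myh11, Tagln, Alas2, Col3a1, Tcf21, Pdgfra, Dcn and Lum were named outside that rule, after their values were seen. Other genes named outside it are marked or overlap a member. Alternatives were RLE, library-total and upper quartile scaling, DESeq2 1.42.0, limma-voom (limma 3.58.1), no filter, a filter of 1 CPM in 3 libraries, dispersions without robust fitting, a replicate block, a covariate for Y-linked transcripts and each library left out. Using only the libraries without Y-linked transcripts was added after seeing the data. The fit was tested on simulated counts.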

Additional observations from a re-analysis of the deposited data

Results flagged for a closer look

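Of 71 sets of 4 overexpression values examined, 7 had 1 library far from the other 3 by Dixon's criterion (the gap as a share of the range), and chance alone marks a small share of such sets. Of these, 4 were in replicate 1. Fosb was at 9.65 CPM in overexpression replicate 1, against 3.46 to 3.83 CPM in the other 3. Egr2 was at 39.0 CPM there, against 3.83 to 4.86 CPM, and Egr3 at 16.9 CPM, against 2.02 to 3.37 CPM. Col5a2, one of the genes most like Egr1 in pattern, was at 668 CPM in replicate 1, against 269 to 326 CPM in the others. Fosl1 was at 0.144 CPM in replicate 2, which is 1 read, and at 0 in the other 3. Hspa1a was at 5.11 CPM in replicate 4, against 1.74 to 2.11 CPM. The 4 adipocyte markers summed to 49.5 CPM in replicate 2, against 0.998 to 6.95 CPM in the other overexpression libraries.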

How the results depend on the processing

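Of the 9 tested members, Fosb was called in 18 of 18 alternatives, Jun in 14, Fos in 8, Atf3 in 6, Egr1 in 5, Fosl2 in 1 and Junb, Jund and Egr2 in 0, and none changed sign. The count of members called, 3 in the fit reported, was 6 with scaling by library totals only, 5 with DESeq2 and 2 in the libraries without Y-linked transcripts, and 1 to 5 when each library was left out in turn. The count of other immediate early genes called, 0 in the fit reported, was 5 with library totals only, 9 with DESeq2, 1 with limma-voom, 1 without robust dispersions, 3 with a covariate for Y-linked transcripts, 3 with the replicate block, 3 in the libraries without Y-linked transcripts and 0 to 6 when each library was left out. The count of MAP kinase feedback inhibitors called, 3 in the fit reported, was 5 with library totals only and with DESeq2, and 1 to 4 when each library was left out. Elk4 changed sign with library totals only, to a log2 fold change of 0.022; the cause was not tested. That scaling moved the median of all genes to 0.14 and the split of calls to 444 higher and 294 lower, against 206 and 438. DESeq2 gave 460 higher and 681 lower, and fits without 1 library 75 to 493 higher and 181 to 658 lower.

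With the replicate block, 129 genes were higher and 253 lower, and 3 members were called (Fosb, Jun and Egr1), with Fos at 1.74 (adjusted p = 0.0867). Same-numbered libraries deviated together at r = 0.0136 to 0.0789, within the range of -0.101 to 0.152 for unlike numbers. So few values show no pairing by number but cannot exclude one.

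The depth limits Fosl1, with 2 reads, and the wild type level of Fosb, with 10 reads. With 4 and 3 libraries, an exact rank-sum test of a single gene cannot give a two-sided p below 0.0571.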
